A study of Mus musculus with 9 samples.

Results

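Of the 55453 genes counted in whole fetal mouse pancreas, 10 are described here, the transcription factors and cofactor of the Neurog3 endocrine differentiation programme. The 10 members were Neurog3, Neurod1, Pax4, Insm1, Fev, Nkx2-2, Rfx6, Myt1, Sox4 and Cbfa2t3, chosen by their roles in that programme. All 10 were among the 19166 genes that passed the filter on low counts. Total RNA of the whole organ was sequenced from e18.5 embryos as 9 libraries on a mixed C57BL6 background, 3 in each of 3 genotypes. The title of the series calls the embryos pancreas-specific Groucho mutants. The libraries carried Pdx1:Cre;Grg3Grg4, Pdx1:Cre;Grg3 or, as controls, Pdx1:Cre alone. All 9 therefore shared the Cre transgene, which the promoter of the pancreatic factor Pdx1 drives, and no group without Cre was analysed here. The sources used here do not give the kind of Grg3 and Grg4 allele or the litters. Grg3 and Grg4 are the Groucho co-repressors encoded by Tle3 and Tle4. Cells outside the Pdx1 lineage, such as mesenchyme, nerve and blood, contribute to whole-organ RNA without having been targeted.

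Neurog3 is a basic helix-loop-helix factor that is switched on briefly in scattered cells of the pancreatic epithelium and commits them to the endocrine lineage. It turns on Neurod1, Insm1, Pax4, Rfx6, Nkx2-2, Myt1 and Fev as these cells leave the epithelium and become hormone-producing islet cells, and the Notch effector Hes1, a DNA-bound repressor that recruits Groucho proteins, keeps it off in neighbouring cells. Several factors of this network, Nkx2-2 among them, are known to bind Groucho co-repressors.

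Gene counts ran from 46817453 to 62744499 per library. Tle3 went against the labels, with 126 to 146 CPM (counts scaled to a common library total by trimmed mean of M values) in the libraries labelled Grg3 Grg4, 145 to 167 CPM in those labelled Grg3 and 63.1 to 67.7 CPM in the controls. It rose by 1.05 and 1.24 on the log2 scale (edgeR adjusted p = 0.000557 and 0.00027). Tle4 had 8.63 to 15.5 CPM in the Grg3 Grg4-labelled libraries, 9.83 to 13.8 CPM in the Grg3-labelled libraries and 7.68 to 7.85 CPM in the controls, so it was not below the controls either, with log2 differences from control of 0.58 and 0.65 that missed the threshold (edgeR adjusted p = 0.155 and 0.132). Because counts were taken over the whole gene, shortened transcripts of a targeted allele would be included. Directions below are therefore between labels, and the groups are called Grg3 Grg4-labelled, Grg3-labelled and control libraries. On the leading principal component, which held 34.9% of the variance, Grg3 Grg4-labelled replicate 2 stood apart at 49.9, against 10.8 and 9.77 for the other libraries of its group. All 3 Grg3 Grg4-labelled libraries, Grg3-labelled replicate 1 and control replicate 1 were male by their expression of sex-linked genes, and the other 4 libraries were female. Markers of the acinar, ductal and islet cells of a pancreas were detected in every library. The 13 acinar markers summed to 157700 to 182600 CPM in the Grg3 Grg4-labelled libraries, 134000 to 245700 CPM in the Grg3-labelled libraries and 234700 to 265600 CPM in the controls, with 1 of the 13, Rnase1, a pancreatic ribonuclease, lower by edgeR in each comparison with control, and their part in the values below was not tested. The labels do not say that the libraries of a group came from separate litters. The p-values therefore set each difference against the spread between these libraries, which may not be the spread between litters.

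Promoter sequence is shown for the 3 members that came nearest to the threshold of the test in a comparison with control, Neurog3, Neurod1 and Cbfa2t3. Basic helix-loop-helix activators such as Neurog3 and Neurod1 bind E-boxes, searched here as CANNTG, and Hes repressors bind N-boxes, searched as CACNAG, both on either strand. The sequences come from RefSeq on GRCm38.p6, read 5′ to 3′ on the strand of the gene, and capitals mark E-box matches. They cover chr10:62132840-62133089 on the plus strand for Neurog3, chr2:79456752-79456886 on the minus strand for Neurod1 and chr8:122699110-122699359 on the minus strand for Cbfa2t3. The Neurod1 stretch is shorter because it ends where the GENCODE gene model begins.
Neurog3: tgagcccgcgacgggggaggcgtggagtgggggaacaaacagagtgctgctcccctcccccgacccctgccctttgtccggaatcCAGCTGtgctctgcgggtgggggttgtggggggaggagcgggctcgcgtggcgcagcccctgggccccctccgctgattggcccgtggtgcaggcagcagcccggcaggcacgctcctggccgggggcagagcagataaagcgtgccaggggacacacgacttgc
Neurod1: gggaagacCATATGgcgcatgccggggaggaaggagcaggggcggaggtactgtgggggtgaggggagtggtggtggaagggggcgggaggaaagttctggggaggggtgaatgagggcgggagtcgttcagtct
Cbfa2t3: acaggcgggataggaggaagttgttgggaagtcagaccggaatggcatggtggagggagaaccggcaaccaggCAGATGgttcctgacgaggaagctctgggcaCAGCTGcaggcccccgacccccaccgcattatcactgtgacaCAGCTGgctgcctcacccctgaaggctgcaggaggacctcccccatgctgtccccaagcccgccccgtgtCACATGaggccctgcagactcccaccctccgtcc

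In the 250 bases before its RefSeq start, Neurog3 held 1 E-box, CAGCTG, and Neurod1 held 1, CATATG. Cbfa2t3 held the 4 capitalised above, the leftmost of which is CAGATG. Before its other start it held 1, CAGGTG. None of these windows held CACNAG. Of the 32851 mouse promoters of that length, 66.2% held an E-box and 36.7% an N-box, with 14.4% holding CAGATG and 17.2% holding CAGGTG. Of the other members with an entry, Nkx2-2 held 3 E-boxes, 1 of them CAGATG, Sox4 held 1 E-box and 1 N-box, Rfx6 held an N-box and no E-box, and Fev held neither. Myt1 held 0, 2 and 1 E-boxes before its 3 starts. A match describes letters in a window and is not a measured binding site.

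Against the controls, both labelled groups had Neurod1 and Cbfa2t3 below every control library. Neurog3 stood above every control library in the Grg3-labelled group and overlapped the controls in the Grg3 Grg4-labelled group. None of these differences passed the edgeR test across all genes. In the comparison of Grg3 Grg4-labelled with control libraries, edgeR called 0 of the 10 factors at an adjusted p under 0.05, against 2.14% of all genes tested. At an unadjusted p under 0.05 there were 4, Neurod1, Fev, Myt1 and Cbfa2t3, each with a log2 change below 0, against 20.2% of all genes. Replicates did not overlap for 4 factors, against 29.1% of all genes, and these were Neurod1, Fev, Sox4 and Cbfa2t3, all lower. The median log2 change of the 10 was -0.40 and that of all genes tested was 0.01. DESeq2 called 2, Neurod1 and Cbfa2t3, against 8.16% of all genes, and limma's voom called 1, Neurod1, against 5.39%.

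In the comparison of Grg3-labelled with control libraries, edgeR again called 0 of 10, against 1.4% of all genes tested. At an unadjusted p under 0.05 there were 3, against 19.1% of all genes, with Neurog3 higher and Neurod1 and Cbfa2t3 lower. Replicates did not overlap for 4 factors, against 24.6% of all genes, namely Neurog3, which was higher, and Neurod1, Myt1 and Cbfa2t3, which were lower. The median of the 10 was 0.10, against 0.02 for all genes. DESeq2 called Neurog3 and Cbfa2t3, against 8% of all genes, and voom called 0 against 2.2%. The shares of members reached by each of these rules rest on 10 genes.

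Between the labelled groups, edgeR called 0 of 10, against 0.188% of all genes tested. At an unadjusted p under 0.05 there were 4, against 17.3% of all genes, namely Neurog3, Insm1, Fev and Sox4, each lower in the Grg3 Grg4-labelled libraries. Replicates did not overlap for Neurog3 alone, against 21.1% of all genes. The median of the 10 was -0.29, against -0.0027 for all genes, and 9 of the 10 changes were below 0. DESeq2 called Fev, against 5.81% of all genes, and voom called 0 against 0.125%. The 2 comparisons with control share the same 3 control libraries. In whole-organ RNA, fewer cells of a type and less RNA per cell cannot be told apart.

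**Figure D1:**
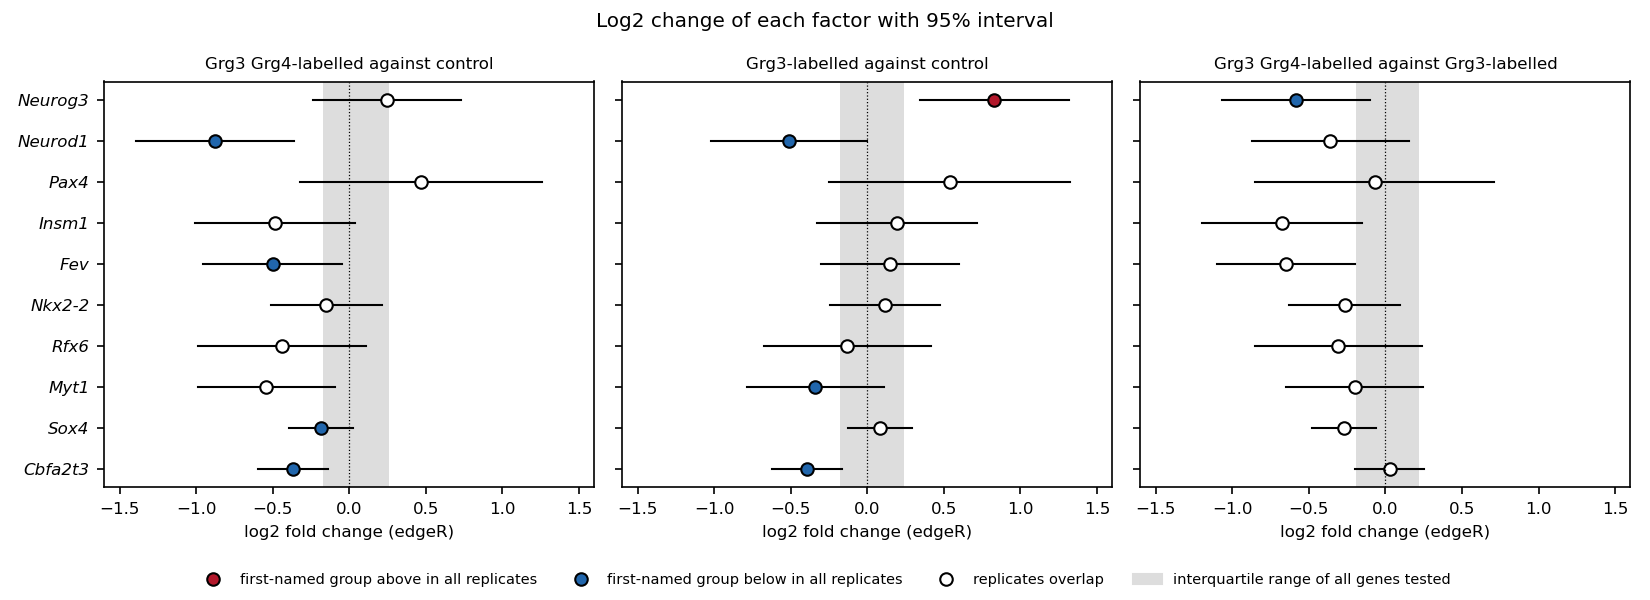
Log2 change of each factor with its 95% interval from the edgeR fit, in 1 panel per comparison. Filled points are factors whose replicates did not overlap, red where the group named before "against" was above and blue where it was below, and the grey band spans the interquartile range of all genes tested. Neurog3 in the Grg3-labelled libraries, at 0.83, and Neurod1 in the Grg3 Grg4-labelled libraries, at -0.87, lie farthest from 0.

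Neurog3, the factor that starts the programme, lies on chromosome 10 at 62133090 to 62134763 (GRCm38, plus strand). It was measured at 22.5, 15.6 and 30.4 CPM in Grg3 Grg4-labelled replicates 1, 2 and 3, at 32.2, 35.6 and 34.8 CPM in the Grg3-labelled libraries, and at 15.3, 23.1 and 19.3 CPM in the controls. Each Grg3-labelled library lay above all other libraries, while the Grg3 Grg4-labelled libraries spread across the control range and beyond it. The group means were 22.9 ± 7.41, 34.2 ± 1.79 and 19.2 ± 3.87 CPM in the Grg3 Grg4-labelled, Grg3-labelled and control libraries (SD, n = 3 each). The Grg3-labelled group was 0.83 above control on the log2 scale (SE 0.22), a fold of 1.78, and missed the threshold (edgeR adjusted p = 0.0917). Neurog3 passed with DESeq2 (adjusted p = 0.00616), with edgeR without the filter on low counts (adjusted p = 0.0198), with the 6 libraries alone (adjusted p = 0.029) and without Grg3 Grg4-labelled replicate 2 (adjusted p = 0.0353). Over 18 alternatives its change in that comparison ran from 0.69 to 0.98, with adjusted p from 0.00616 to 0.283.

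The Grg3 Grg4-labelled group differed from control by 0.25 (SE 0.22, edgeR adjusted p = 0.572), and from the Grg3-labelled group by -0.58 (SE 0.22, edgeR adjusted p = 0.211). The value against control rested on single libraries. It was 0.46 without replicate 2 and -0.015 without replicate 3 of the Grg3 Grg4-labelled group. Among the males, Neurog3 had 15.6 to 30.4 CPM in the Grg3 Grg4-labelled libraries, 32.2 CPM in the Grg3-labelled library and 15.3 CPM in the control. Among the females it had 34.8 and 35.6 CPM in the Grg3-labelled libraries and 19.3 and 23.1 CPM in the controls. Fam241b, a protein-coding gene, overlaps Neurog3 on the opposite strand, and its counts summed to 37.3% of those of Neurog3. The sources used here do not say whether the counting used strand, so the level of Neurog3 is uncertain by an amount that was not measured. Fam241b averaged 8.78 ± 2.01, 10.3 ± 0.79 and 9.996 ± 0.84 CPM in the Grg3 Grg4-labelled, Grg3-labelled and control libraries (SD, n = 3 each).

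Neurod1, a basic helix-loop-helix factor that acts downstream of Neurog3 and maintains islet cells and insulin gene transcription, was lowest in the Grg3 Grg4-labelled group. It was measured at 7.515, 5.89 and 12.3 CPM in Grg3 Grg4-labelled replicates 1, 2 and 3, at 11.4, 12.2 and 9.26 CPM in the Grg3-labelled libraries, and at 15.9, 16.1 and 15.03 CPM in the controls. All 6 labelled libraries lay below all 3 controls, and the 2 labelled groups overlapped. The change against control was -0.87 in the Grg3 Grg4-labelled group (SE 0.23, edgeR adjusted p = 0.0798) and -0.51 in the Grg3-labelled group (SE 0.23, edgeR adjusted p = 0.26). Between the labelled groups it was -0.36 (SE 0.23, edgeR adjusted p = 0.446). The Grg3 Grg4-labelled value was -1.23 and passed without replicate 3 of that group (edgeR adjusted p = 0.0127), and it was -0.66 without replicate 2 (edgeR adjusted p = 0.16). It also passed with DESeq2 (adjusted p = 0.0059), with voom (adjusted p = 0.0291) and without the filter on low counts (edgeR adjusted p = 0.0225).

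**Figure D2:**
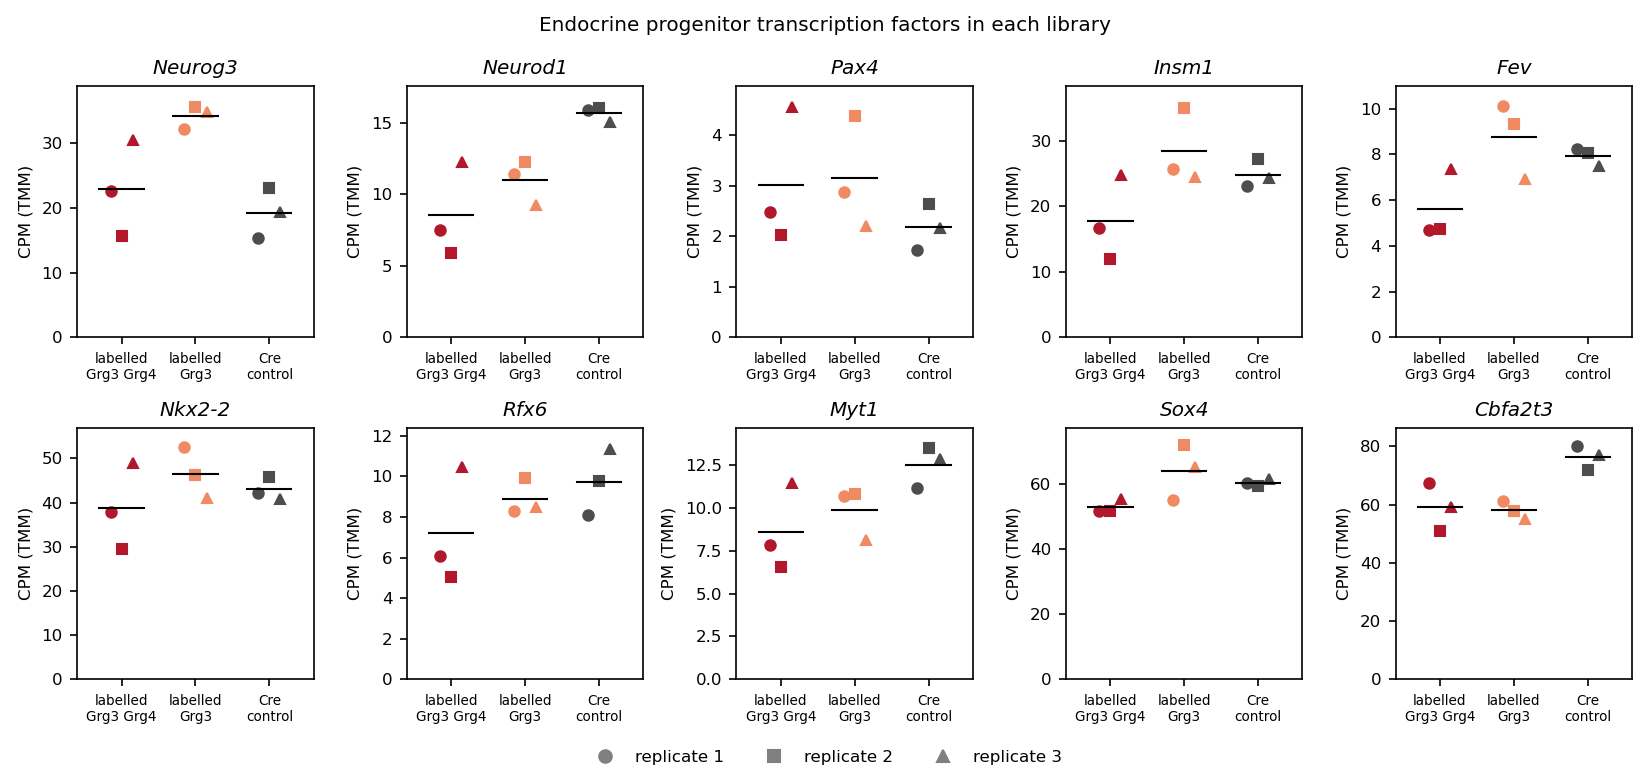
CPM of each of the 10 factors in every library, with group means as lines and replicates 1, 2 and 3 as circles, squares and triangles. Neurod1 and Cbfa2t3 lie below the controls in all 6 labelled libraries, and the triangle of the Grg3 Grg4-labelled group is its highest library for 9 of the 10 factors.

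Insm1, a zinc finger repressor that Neurog3 turns on and that endocrine precursors need to mature, was measured at 16.6, 11.9 and 24.8 CPM in the Grg3 Grg4-labelled libraries. It had 25.7, 35.0 and 24.5 CPM in the Grg3-labelled libraries and 23.1, 27.2 and 24.3 CPM in the controls. All 3 groups overlapped. Its change was -0.48 in the Grg3 Grg4-labelled group against control (SE 0.24, edgeR adjusted p = 0.284), 0.19 in the Grg3-labelled group against control (SE 0.23, edgeR adjusted p = 0.697) and -0.68 between the labelled groups (SE 0.23, edgeR adjusted p = 0.19).

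Fev, an ETS factor that marks the endocrine precursors formed after Neurog3 has been switched on, was measured at 4.69, 4.76 and 7.38 CPM in the Grg3 Grg4-labelled libraries. It had 10.1, 9.32 and 6.91 CPM in the Grg3-labelled libraries and 8.22, 8.04 and 7.48 CPM in the controls. The Grg3 Grg4-labelled libraries lay below all 3 controls, replicate 3 by a narrow margin, and overlapped the Grg3-labelled group. The change was -0.50 against control (SE 0.20, edgeR adjusted p = 0.208) and -0.65 against the Grg3-labelled group (SE 0.20, edgeR adjusted p = 0.161). That last difference was called by DESeq2 (adjusted p = 0.048).

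Pax4, a paired homeobox repressor that favours beta and delta cells over alpha cells, had the widest relative spread within the labelled groups. It was measured at 2.47, 2.03 and 4.55 CPM in the Grg3 Grg4-labelled libraries, at 2.87, 4.38 and 2.21 CPM in the Grg3-labelled libraries and at 1.73, 2.64 and 2.16 CPM in the controls. All 3 groups overlapped, and the coefficient of variation was 44.7% in the Grg3 Grg4-labelled and 35.3% in the Grg3-labelled libraries, against 20.9% in the controls. Its changes against control were 0.47 in the Grg3 Grg4-labelled group and 0.54 in the Grg3-labelled group (SE 0.35 each, edgeR adjusted p = 0.503 and 0.441).

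Nkx2-2, a homeobox factor that beta cells need and that binds Groucho proteins, was measured at 37.8, 29.5 and 48.9 CPM in the Grg3 Grg4-labelled libraries. It had 52.5, 46.2 and 41.0 CPM in the Grg3-labelled libraries and 42.2, 45.9 and 40.9 CPM in the controls. The groups overlapped in every comparison, with changes of -0.15 in the Grg3 Grg4-labelled group (95% interval -0.51 to 0.21) and 0.12 in the Grg3-labelled group (95% interval -0.25 to 0.48) against control. An antisense transcript, 6430503K07Rik, overlaps Nkx2-2 and held counts equal to 12.1% of its own.

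Rfx6, a winged helix factor that islet cell types other than the pancreatic polypeptide cell need to form, was measured at 6.09, 5.06 and 10.5 CPM in the Grg3 Grg4-labelled libraries. It had 8.31, 9.91 and 8.47 CPM in the Grg3-labelled libraries and 8.10, 9.78 and 11.4 CPM in the controls. The groups overlapped, with changes against control of -0.44 in the Grg3 Grg4-labelled group and -0.13 in the Grg3-labelled group (edgeR adjusted p = 0.354 and 0.82).

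Myt1, a zinc finger factor that promotes endocrine differentiation together with Neurog3, was measured at 7.82, 6.56 and 11.4 CPM in the Grg3 Grg4-labelled libraries. It had 10.7, 10.8 and 8.13 CPM in the Grg3-labelled libraries and 11.2, 13.5 and 12.9 CPM in the controls. The Grg3-labelled libraries lay below all controls, and in the Grg3 Grg4-labelled group replicate 3 reached the lowest control. The changes against control were -0.54 in the Grg3 Grg4-labelled group (SE 0.20, edgeR adjusted p = 0.175) and -0.34 in the Grg3-labelled group (SE 0.20, edgeR adjusted p = 0.387).

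Sox4, an HMG box factor of many progenitor cells that helps to switch on Neurog3, was measured at 51.8, 51.8 and 55.5 CPM in the Grg3 Grg4-labelled libraries. It had 55.1, 71.8 and 65.1 CPM in the Grg3-labelled libraries and 60.3, 59.2 and 61.6 CPM in the controls. The Grg3 Grg4-labelled libraries lay below all controls, by a log2 change of -0.19 (SE 0.09, edgeR adjusted p = 0.303), and the Grg3-labelled libraries lay on both sides of the controls. Sox4 is also expressed in mesenchyme, and summed mesenchymal markers had 8512 to 8752, 7641 to 12110 and 8602 to 9606 CPM in the Grg3 Grg4-labelled, Grg3-labelled and control libraries. Their part in the values of Sox4 was not tested.

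Cbfa2t3, a co-repressor of the ETO family that works with basic helix-loop-helix factors and is also known from blood progenitors, was below the controls in both labelled groups. It was measured at 67.4, 50.9 and 59.2 CPM in the Grg3 Grg4-labelled libraries, at 61.3, 57.7 and 55.1 CPM in the Grg3-labelled libraries and at 79.9, 72.0 and 77.1 CPM in the controls. All 6 labelled libraries lay below all 3 controls, and the labelled groups overlapped with nearly the same mean. The changes against control were -0.37 in the Grg3 Grg4-labelled group (SE 0.10, edgeR adjusted p = 0.0894) and -0.40 in the Grg3-labelled group (SE 0.10, edgeR adjusted p = 0.0898). DESeq2 called both (adjusted p = 0.0258 and 0.0144). Summed erythroid markers had 625 to 1348, 846 to 1494 and 710 to 756 CPM in the Grg3 Grg4-labelled, Grg3-labelled and control libraries. They lay on both sides of the controls in the Grg3 Grg4-labelled group and above them in the Grg3-labelled group, and their part in the values of Cbfa2t3 was not tested.

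The ratio of Neurog3 to Neurod1 within a library needs no scaling between libraries. There were 2.99, 2.65 and 2.48 Neurog3 counts per Neurod1 count in Grg3 Grg4-labelled replicates 1, 2 and 3, 2.83, 2.91 and 3.76 in the Grg3-labelled libraries, and 0.966, 1.44 and 1.29 in the controls. Every labelled library held a ratio above every control, and the labelled groups overlapped. On the log2 scale the ratio was 1.16 above control in the Grg3 Grg4-labelled group and 1.37 above in the Grg3-labelled group, with an exact two-sided permutation p of 0.1 for each, the smallest that 3 against 3 libraries can give. Between the labelled groups it differed by -0.22 (exact permutation p = 0.3). The levels behind the ratio differed between the groups, since Neurod1 was below the controls in both and Neurog3 above them in the Grg3-labelled libraries alone. The pair was chosen with earlier values of both genes known, so the separation of the ratio adds no independent support.

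**Figure D3:**
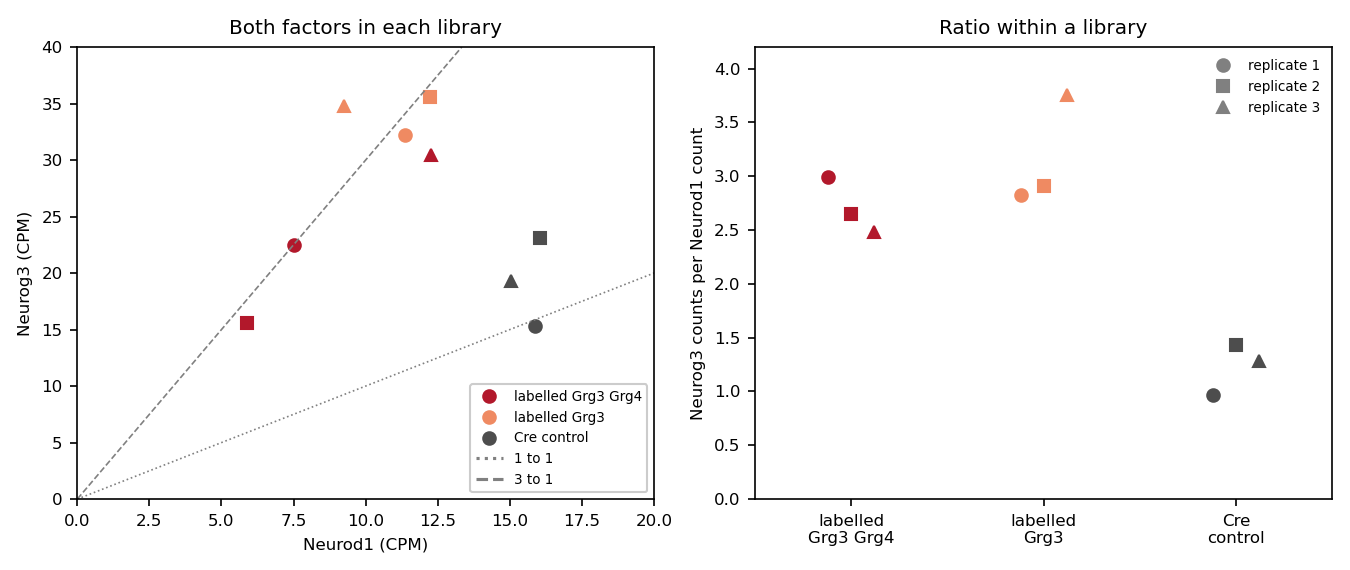
Neurog3 against Neurod1 CPM in every library (left, with lines for 1 and 3 Neurog3 counts per Neurod1 count) and the count ratio by group (right, circles, squares and triangles for replicates 1, 2 and 3). The 6 labelled libraries lie near the line for 3, at ratios of 2.48 to 3.76, and the controls near the line for 1, at 0.966 to 1.44.

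Neurog3 was also set against each of the other 9 factors, a comparison chosen after their values were seen. In the Grg3 Grg4-labelled libraries, 6 of the 9 ratios lay above all controls, to Neurod1, Insm1, Fev, Nkx2-2, Rfx6 and Myt1, while 6.32% of the ratios of Neurog3 to any gene tested did so. Other islet genes fell in these libraries too, with a median log2 change of -0.88 for 15 hormone and granule genes. The ratios of Neurog3 to such genes were not counted apart, so the separation is not shown to be particular to these factors. Per Insm1 count there were 1.23 to 1.35 Neurog3 counts in the Grg3 Grg4-labelled libraries and 0.665 to 0.849 in the controls. Per Myt1 count there were 2.38 to 2.88 in the Grg3 Grg4-labelled libraries and 1.37 to 1.71 in the controls. The ratio to Pax4 did not separate the groups, at 6.68 to 9.09 in the Grg3 Grg4-labelled libraries and 8.72 to 8.92 in the controls. In the Grg3-labelled libraries 8 of the 9 ratios lay above all controls, all but that to Pax4, against 70.7% of the ratios to any gene. Between the labelled groups, 0 of the 9 ratios lay above (0.266% of those to any gene did) and 2 lay below, to Myt1 and Cbfa2t3, against 39.8% of those to any gene.

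Levels were compared between factors per length, in RPKM (CPM per kilobase of exon). Neurog3 averaged 13.7 ± 4.43 RPKM in the Grg3 Grg4-labelled libraries, 20.4 ± 1.07 in the Grg3-labelled libraries and 11.5 ± 2.31 in the controls (SD, n = 3 each). In the Grg3 Grg4-labelled libraries the mean levels in RPKM ran Neurog3, Nkx2-2, Sox4, Cbfa2t3, Insm1, Fev, Neurod1, Pax4, Rfx6 and Myt1, and all neighbours in that order overlapped except Sox4 and Cbfa2t3. In the Grg3-labelled libraries Neurog3 came before Nkx2-2, at 16.2 ± 2.004 RPKM, without overlap. The mean levels in RPKM in the controls ran Nkx2-2, Sox4, Neurog3, Cbfa2t3, Insm1, Neurod1, Fev, Rfx6, Myt1 and Pax4. There Neurog3 overlapped both Sox4, at 12.6 ± 0.25 RPKM, and Cbfa2t3, at 9.12 ± 0.48 RPKM. Neurod1 averaged 3.13 ± 1.21, 4.02 ± 0.56 and 5.74 ± 0.20 RPKM in the Grg3 Grg4-labelled, Grg3-labelled and control libraries (SD, n = 3 each). It stood above Fev, at 4.89 ± 0.24 RPKM, in the controls without overlap and below Fev on average in both labelled groups.

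Within the labelled groups, the order of the libraries was alike for many of the factors. Grg3 Grg4-labelled replicate 3 was the highest of its group for 9 of the 10 factors, against 34.6% of all genes tested, and replicate 2 the lowest for 8, against 36.6%. In the Grg3-labelled group, replicate 2 was the highest for 7 factors, against 39.0% of all genes, and replicate 3 the lowest for 7, against 34.4%. Summed hormone and granule genes of the islet followed part of this order, at 2732, 2429 and 4932 CPM in Grg3 Grg4-labelled replicates 1, 2 and 3, 6681, 6049 and 4380 CPM in the Grg3-labelled libraries and 6883, 8315 and 7893 CPM in the controls. The 7 muscle markers summed to 519.8, 1291 and 279 CPM in Grg3 Grg4-labelled replicates 1, 2 and 3, to 387, 1151 and 470.0 CPM in the Grg3-labelled libraries and to 241, 185 and 168 CPM in the controls. They were thus highest in the Grg3 Grg4-labelled library that was lowest for 8 factors, and in the Grg3-labelled library that was highest for 7. All 6 labelled libraries lay above the controls in this sum, although edgeR called 0 of the 7 genes in either comparison with control (7 and 6 at an unadjusted p under 0.05). DESeq2 called 3 of the 7 as higher in each, and voom called 1 in the Grg3 Grg4-labelled and 0 in the Grg3-labelled comparison. How much of any tissue each library held, and its part in the values above, was not tested.

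Over the 9 libraries, the Pearson correlation of log2 CPM was highest between Neurod1 and Myt1, at 0.96, and lowest between Neurog3 and Cbfa2t3, at -0.43. Neurog3 was most like Pax4 among the members, at 0.72. Between Neurog3 and Neurod1 it was 0.06 over all 9 libraries and 0.76 after the mean of each group was subtracted. These values describe 9 libraries that share genotype groups and tissue make-up. Of the 11344 genes with at least 5 CPM on average, those most like Neurog3 over the 9 libraries included Fis1 (r = 0.92), Nfkbil1 (r = 0.91), Csrnp1 (r = 0.91) and Mxra8 (r = 0.91).

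**Figure D4:**
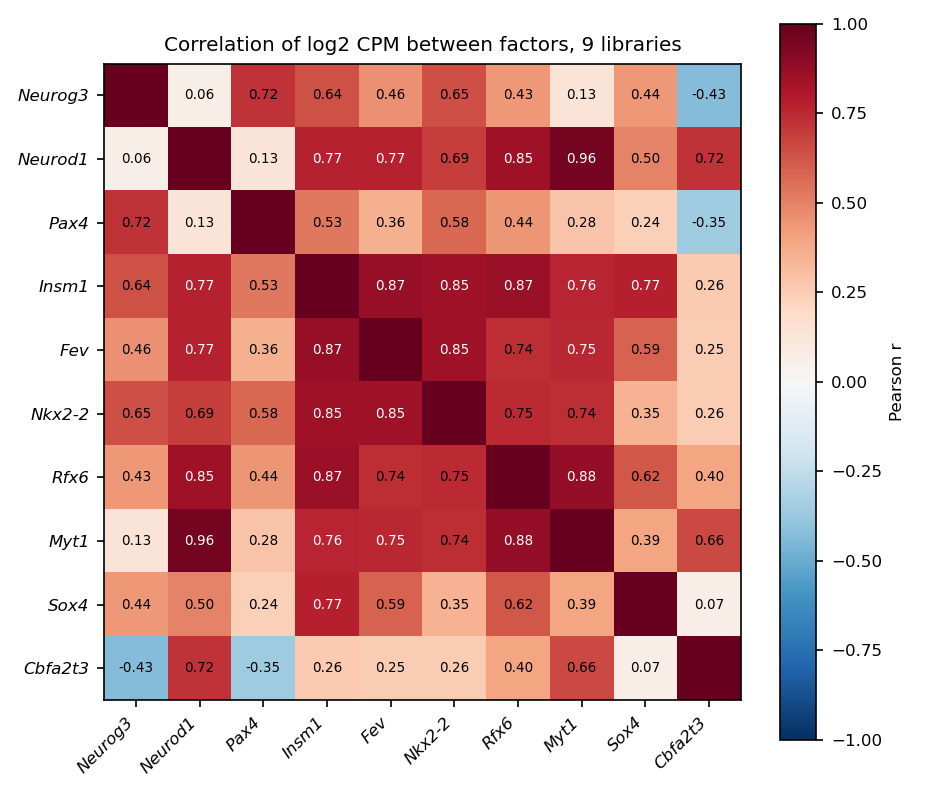
Pearson correlation of log2 CPM between each pair of factors over the 9 libraries, from blue (-1) through white (0) to red (1). Neurod1 and Myt1 are the most alike, at 0.96, while Neurog3 and Neurod1 stand at 0.06.

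Among genes that act upstream of Neurog3, few passed the test. Of 12 factors of the progenitor epithelium, 2 fell in the Grg3 Grg4-labelled libraries against control, beside 2.14% of all genes, and these were Foxa2 and Pdx1. Foxa2, a forkhead factor that acts on Neurog3, fell by 0.57 (SE 0.13, edgeR adjusted p = 0.0488) and averaged 28.1 ± 4.40 CPM in the Grg3 Grg4-labelled libraries and 41.7 ± 3.71 CPM in the controls (SD, n = 3 each). Pdx1, whose promoter also drives the Cre, fell by 0.60 (SE 0.11, edgeR adjusted p = 0.0306). Against control, edgeR called 0 of the 12 in the Grg3-labelled libraries (2 at an unadjusted p under 0.05), DESeq2 called 2 and voom 1. Of 14 Notch pathway genes, Rbpj, the DNA-binding partner of Notch, fell by 1.09 in the Grg3 Grg4-labelled libraries (SE 0.24, edgeR adjusted p = 0.0484) and averaged 20.9 ± 6.58 CPM there and 44.4 ± 0.15 CPM in the controls (SD, n = 3 each). Rbpj was the only 1 of the 14 called by edgeR there, beside 2.14% of all genes. At an unadjusted p under 0.05, 3 were higher and 1 lower, against 20.2% of all genes in either direction. DESeq2 called 2 higher and 1 lower, and voom 1 higher and 1 lower. For the Grg3-labelled libraries, edgeR called 0 of the 14 Notch genes (4 at an unadjusted p under 0.05), DESeq2 called 2 and voom 0. There Hey1, a Notch-induced repressor, stood at 16.0 ± 2.51 CPM, against 9.37 ± 0.79 CPM in the controls (SD, n = 3 each, edgeR adjusted p = 0.0552).

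Other genes of the same stages were counted from lists of genes known to be enriched in Neurog3-positive progenitors and in the precursors that follow. Of 13 progenitor genes, Mdk, the growth factor midkine, rose by 0.94 in the Grg3-labelled libraries (SE 0.17, edgeR adjusted p = 0.0333), beside 1.4% of all genes, and averaged 114 ± 22.7 CPM there and 59.4 ± 9.81 CPM in the controls (SD, n = 3 each). The median log2 change of the 13 was 0.29. At an unadjusted p under 0.05, 5 were higher and 0 lower, against 19.1% of all genes in either direction. Among the 5, Nhlh1 had at most 0.68 CPM in any library. Ppp1r14a, also among them, had 6.89, 14.6 and 5.94 CPM in Grg3-labelled replicates 1, 2 and 3. The 13 summed to 600.0 to 629 CPM in the Grg3-labelled libraries and 490 to 512 CPM in the controls. The part of other cells in these values was not tested. In the Grg3 Grg4-labelled libraries edgeR called 0 of the 13 (2 at an unadjusted p under 0.05), DESeq2 called 1 and voom 0, and the median was 0.11. Of 8 precursor genes, Aplp1, an amyloid precursor-like protein, fell by 0.72 in the Grg3 Grg4-labelled libraries (SE 0.13, edgeR adjusted p = 0.0275). The other 7 did not pass by edgeR there, which called 2.14% of all genes. At an unadjusted p under 0.05, 5 of the 8 were lower and 0 higher, against 20.2% of all genes in either direction. Of the 8, DESeq2 called 4 and voom 3, all lower. The median of the 8 was -0.61, and their summed level was 258 to 436 CPM in the Grg3 Grg4-labelled libraries and 493 to 566 CPM in the controls. In the Grg3-labelled libraries edgeR, DESeq2 and voom each called 0 of the 8, with 0 at an unadjusted p under 0.05, and the median was -0.16.

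Some later islet genes fell in the Grg3 Grg4-labelled libraries. Of 15 hormone and granule genes, 4 fell, beside 2.14% of all genes tested, among them Ins2, an insulin gene, by 1.52 (SE 0.30, edgeR adjusted p = 0.0353), and Cpe, the prohormone-trimming carboxypeptidase, by 0.75 (SE 0.12, edgeR adjusted p = 0.0151). The median of the 15 was -0.88 in the Grg3 Grg4-labelled libraries. At an unadjusted p under 0.05, 12 of the 15 were lower there and 0 higher, against 20.2% of all genes in either direction. Of the same 15, DESeq2 and voom each called 10, all lower, against 8.16% and 5.39% of all genes. Of 17 islet transcription factors, Mafa, an activator of insulin genes, fell by 1.35 (SE 0.24, edgeR adjusted p = 0.0275), Pou3f4, a POU factor of the alpha cell, fell by 1.39 (SE 0.24, edgeR adjusted p = 0.0216), and Pdx1 was the third, beside the same 2.14%. The median of the 17 was -0.16, with 6 lower and 0 higher at an unadjusted p under 0.05. Of the 17, DESeq2 and voom each called 4 in that comparison, all lower. In the Grg3-labelled libraries edgeR called 0 of either list (3 of the 15 and 5 of the 17 at an unadjusted p under 0.05, against 19.1% of all genes), DESeq2 called 2 of the 15 and 3 of the 17, and voom called 0 and 1. Their medians there were -0.29 for the 15 and 0.09 for the 17.

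Neurog3 is also used by endocrine cells of the gut and Insm1 and Myt1 by neurons, so markers of those cells were read in the same libraries. Gast, which encodes gastrin, rose against control by 3.23 in the Grg3 Grg4-labelled libraries (SE 0.21, edgeR adjusted p = 0.000149) and by 4.39 in the Grg3-labelled libraries (SE 0.21, edgeR adjusted p = 1.03e-05). It averaged 8.70 ± 1.89, 19.4 ± 1.65 and 0.924 ± 0.205 CPM in the Grg3 Grg4-labelled, Grg3-labelled and control libraries (SD, n = 3 each). The other 4 gut endocrine markers, Gip, Sct, Nts and Tac1, did not pass, and none exceeded 1.41 CPM in any library. The 5 summed to 8.42 to 11.8, 18.7 to 22.5 and 1.63 to 2.55 CPM in the Grg3 Grg4-labelled, Grg3-labelled and control libraries. In the labelled libraries most of this sum was Gast. The 12 neuron markers summed to 83.5 to 93.6, 82.7 to 135 and 87.0 to 97.5 CPM in the same groups, and the 6 Schwann cell markers to 54.1 to 57.0, 53.0 to 64.1 and 55.7 to 59.6 CPM. Of 7 liver markers, edgeR called 6 as higher than control in each labelled group, beside 2.14% and 1.4% of all genes. All 7 were higher at an unadjusted p under 0.05 in both comparisons. DESeq2 called 7 in each, while voom called 2 in the Grg3 Grg4-labelled and 1 in the Grg3-labelled comparison. The 7 summed to 464 to 1371, 67.8 to 1110 and 5.57 to 11.3 CPM in the Grg3 Grg4-labelled, Grg3-labelled and control libraries. No marker of these 4 lists was at 0 in all 3 controls. The part of these cells in the values of the 10 factors was not tested.

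Genes that neighbour Neurog3 were read to see whether its stretch of chromosome 10 differed as a whole. Of 51 tested genes within 2 Mb, edgeR called 0 in either comparison with control (5 at an unadjusted p under 0.05 in each). DESeq2 called 1 in the Grg3 Grg4-labelled and 2 in the Grg3-labelled comparison, and voom 0 in both. The median log2 change of these neighbours was -0.05 and -0.04.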

How the data were processed

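The authors deposited 1 table per library, with whole-number counts of reads for each gene symbol and no scaling. Per the submitters' processing notes, the tools were HISAT2, HTSeq, DESeq2, bedtools, Trim Galore and FastQC, on mm10 and GRCm38, and no role is stated for any of them. The sources used here give neither tool versions nor the annotation or strand option used for counting. The 5 rows that name no gene took 28.5% to 33.2% of reads and stayed out of library sizes and tests, so genes with reads shared between genes or copies are undercounted.

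Counts were tested in R 4.3.3 with edgeR 4.0.16 (quasi-likelihood F test, two-sided) after TMM scaling and filterByExpr (minimum count 10, minimum total 15), in 1 fit of all 9 libraries with a mean per group. Called means a Benjamini-Hochberg adjusted p under 0.05 over the 19166 genes kept. The SE is the log2 change divided by the square root of F, and 95% intervals use the degrees of freedom of the fit. Exon lengths, positions and overlaps are from GENCODE M21 on GRCm38, which may not be the annotation used for counting. The ratio of Neurog3 to Neurod1 added 0.5 to each count. The principal component used log2 of CPM plus 1. As a check for a library deposited more than once, and for nothing else, counts were compared within groups, and every pair differed beyond sampling noise (chi-square per degree of freedom 17.1 to 193).

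The members and lists were chosen with earlier results of these data known. The text names the members, up to 4 genes of each list by the smallest p and, of the 5 genes most like Neurog3, all but 1 that is not reported here. The alternatives were other scalings, filters and libraries in the fit, a replicate block, sex as a term, DESeq2 1.42.0 and voom of limma 3.58.1. The test was tested on simulated data. Protein motifs were planned and are not analysed here.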

Additional observations from a re-analysis of the deposited data

How the results depend on the processing

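With 0 members called by edgeR in each comparison, any call under another setting counts as a difference. In the Grg3 Grg4-labelled libraries against control, 1 member passed without a filter on low counts (930 genes called in all). There 2 passed with DESeq2, against 8.16% of all genes, and 1 with voom, against 5.39%. In the Grg3-labelled libraries against control, 1 passed without a filter (586 genes in all) and 1 with only the 6 libraries compared. DESeq2 passed 2 there, against 8% of all genes. Between the labelled groups, 1 passed with DESeq2, against 5.81%. The fit without a filter tested more genes than the others. Leaving out 1 library gave 0 to 1 members in each comparison with control and 0 to 0 between the labelled groups, and the calls in all ran from 50 to 825, 32 to 327 and 6 to 49 genes. The cause of these shifts was not tested.

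After the mean of each group was subtracted, libraries of different groups with the same replicate number correlated at -0.09 to 0.09 over the genes tested. Libraries with different numbers were not compared and the litters are not given, so this check cannot decide whether the numbers pair the libraries. With a replicate block, 0 members passed in any comparison, Neurog3 stood at 0.83 in the Grg3-labelled libraries (edgeR adjusted p = 0.111) and Neurod1 at -0.90 in the Grg3 Grg4-labelled libraries (edgeR adjusted p = 0.116). In the log2 ratio of Neurog3 to Neurod1, a block cannot move the differences of 1.16, 1.37 and -0.22, because each number occurs once in each group.

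Small changes turned sign. Between the labelled groups, Pax4 stood at 0.15 and Cbfa2t3 at -0.045 with sex as a term, and Pax4 at 0.038 with voom, and leaving out 1 library gave -0.49 to 0.24 for Pax4 and -0.078 to 0.12 for Cbfa2t3. Leaving out 1 library gave -0.35 to 0.012 for Nkx2-2 and -0.015 to 0.46 for Neurog3 in the Grg3 Grg4-labelled libraries against control, and -0.0059 to 0.19 for Sox4 in the Grg3-labelled libraries against control. The ratio of Neurog3 to Neurod1 kept its sign in every setting, from 0.99 to 1.28 and 1.21 to 1.49 against control and from -0.29 to -0.09 between the labelled groups when 1 library was left out. With sex as a term, 30 genes in all passed in the Grg3 Grg4-labelled libraries against control, whose group holds males only. Pax4 had 83 to 319 counts per library, the fewest of the members, which limits its precision.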
